A study of Rattus norvegicus with 6 samples.

Results

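The mRNAs described here are those of sterol synthesis and of the SREBP2 pathway, in livers of rats fed a control diet (CD) or a Western diet (WD). A list of 27 genes was taken by symbol: the enzymes from the thiolase Acat2 to the reductase Dhcr7, the control proteins Srebf2, Scap, Insig1 and Insig2, and the sterol handling genes Stard4, Npc1 and Mylip. Of these, 25 had a locus of their own among 33022 loci. Tm7sf2 and Npc1 were found only on loci that merge them with neighbouring genes. All 25 had a mean of at least 1 FPKM (fragments scaled by transcript length and by library size) and so were among the 10201 loci compared.

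Cholesterol is made from acetyl-CoA through mevalonate, isoprenoid diphosphates, squalene and lanosterol. The enzyme genes are classic targets of SREBP2, a transcription factor made as a precursor in the endoplasmic reticulum. Scap escorts the precursor to the Golgi for cleavage when membrane sterol is low, and the Insig proteins hold Scap back when sterol is high. The liver is a main site of this pathway, and cholesterol in the diet is known to lower it.

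The animals were obesity-prone Sprague Dawley rats, fed the CD (TD 08485) or the WD (TD 88137, a diet rich in fat, sucrose and cholesterol) for 2 weeks. All were fasted overnight and given their own diet again for 1 h before the liver was taken. The libraries held total liver RNA, RNA of the light gradient fraction (mRNAs with 3 or fewer ribosomes) and RNA of the heavy fraction (4 or more ribosomes), each from both diets. Each library was a pool of RNA from 3 rats, so each combination is 1 library, no value has a replicate and no p-value can be given. A difference below is therefore between libraries, and diet and pool cannot be told apart. In total RNA of a tissue, fewer cells of a type and less RNA per cell cannot be told apart either.

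The 6 hepatocyte markers summed to between 42941 and 129851 FPKM in the 6 libraries and the 3 adipocyte markers were at 0 in all. In total RNA, where most members were lower in the WD, hepatocyte markers summed to 83757 FPKM in the CD and 75810 FPKM in the WD. Among them, Cyp2e1 (1357 and 1533 FPKM) and Cps1 (320 and 344 FPKM) went the other way. Blood markers had 34.1 and 16.0 FPKM. The sums of 4 other types were higher in the WD, at 55.3 and 84.1 FPKM for 6 Kupffer cell and macrophage markers, 53.4 and 70.9 FPKM for 4 of sinusoidal endothelium, 36.3 and 46.6 FPKM for 4 of stellate cells and 0.694 and 4.35 FPKM for 3 of cholangiocytes. The cholangiocyte sum was Epcam alone, since Krt7 and Sox9 were listed at 0 in both total RNA libraries. The part of all these cell types in the members' values was not tested. Depth was uneven, since the WD light fraction held 2.34 times the fragments of the CD heavy fraction and the other libraries 1.02 to 1.57 times. Blood markers summed to 412 FPKM in the WD light fraction and to between 16.0 and 51.7 FPKM elsewhere. In the CD and WD light fractions, Hbb had 13.9 and 242 FPKM and Hba1 had 18.0 and 163 FPKM. Alas2, the other blood marker found, went the other way, at 19.7 and 7.18 FPKM. The part of blood in the light fraction values was likewise not tested.

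The number of fragments behind the FPKM values could be inferred for 17 members. For these, a 95% interval of the WD to CD ratio was computed by the exact Clopper-Pearson method. For ribosome density (the heavy to light ratio) the conditional odds ratio was used. These intervals cover counting error only, because no library has a replicate. No step that collapses amplified reads to single molecules is described in the study's methods. Without such a step, the intervals may be too narrow even for counting error. The other 8, Acat2, Idi1, Fdps, Ggps1, Lss, Dhcr7, Srebf2 and Scap, have no interval.

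To show what the members share in sequence, the 250 bases before the gene start are printed for 4 synthesis genes that were lower in WD total RNA and for Insig2, which was higher. They come from RefSeq for the rat assembly GRCr8, which is not the build of the expression values, and read 5′ to 3′ on the gene's strand. The capitals mark CCAAT or its reverse complement ATTGG, the core of the NF-Y site. The windows are chr2:53382054-53382303 (plus strand) for Hmgcs1, chr2:176804817-176805066 (minus strand) for Fdps, chr16:29746863-29747112 (plus) for Msmo1, chrX:155817110-155817359 (plus) for Nsdhl and chr13:35040099-35040348 (minus) for Insig2.
Hmgcs1: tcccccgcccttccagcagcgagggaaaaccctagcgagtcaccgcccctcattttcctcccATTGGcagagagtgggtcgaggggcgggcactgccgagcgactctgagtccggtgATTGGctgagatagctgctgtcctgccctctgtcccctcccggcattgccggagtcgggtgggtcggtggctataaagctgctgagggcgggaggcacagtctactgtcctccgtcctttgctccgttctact
Fdps: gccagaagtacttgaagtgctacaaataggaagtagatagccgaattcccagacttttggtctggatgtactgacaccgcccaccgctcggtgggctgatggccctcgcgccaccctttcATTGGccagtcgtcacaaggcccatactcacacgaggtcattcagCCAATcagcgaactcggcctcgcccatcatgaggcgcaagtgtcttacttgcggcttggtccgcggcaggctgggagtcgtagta
Msmo1: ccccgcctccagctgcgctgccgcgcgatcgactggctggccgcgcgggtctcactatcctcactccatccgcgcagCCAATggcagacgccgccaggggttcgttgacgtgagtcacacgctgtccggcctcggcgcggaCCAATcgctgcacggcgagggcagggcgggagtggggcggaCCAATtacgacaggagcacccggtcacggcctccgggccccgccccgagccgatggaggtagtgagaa
Nsdhl: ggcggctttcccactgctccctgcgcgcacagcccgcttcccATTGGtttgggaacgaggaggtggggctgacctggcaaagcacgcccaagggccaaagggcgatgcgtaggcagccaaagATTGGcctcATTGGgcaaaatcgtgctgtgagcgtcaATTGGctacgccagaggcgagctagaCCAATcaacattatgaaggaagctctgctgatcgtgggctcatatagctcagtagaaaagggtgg
Insig2: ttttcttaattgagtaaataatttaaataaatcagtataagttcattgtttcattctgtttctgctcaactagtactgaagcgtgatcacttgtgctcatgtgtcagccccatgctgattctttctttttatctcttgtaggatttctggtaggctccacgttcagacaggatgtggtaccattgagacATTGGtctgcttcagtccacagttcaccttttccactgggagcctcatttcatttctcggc

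Nsdhl carried 5 matches, Msmo1 had 3, Hmgcs1 and Fdps had 2 each and Insig2 had 1. A window of 300 bases, from 250 before to 50 after the start, was found for 23 of the 27 genes. CCAAT on either strand occurred in 18 of these 23, against 37.5% of 33469 promoters of all genes. The matches did not follow the direction in total RNA gene by gene, since Cyp51 and Dhcr7, lower in the WD, had none, and Lbr and Mylip, higher in the WD, had 2 each. The Sp1 box GGGCGG, also on both strands, occurred in 19 of the 23 against 33.1% of all, and no match of one overlapped a match of the other. One fixed form of the sterol element, TCACNCCAC, searched on both strands, was in 0 of the 23 windows and in 1.12% of all. Other forms of the element were not searched, so this does not show that the members lack one. A start of C followed by 4 pyrimidines was in 0 of 23 and in 2.63%. These are matches of letters in this window, and the shares of all promoters were not restricted to genes expressed in liver.

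In total RNA, most members were lower after the WD than after the CD. The median log2 ratio was -0.48 over 25 members, against 0.02 over all loci compared, where 47.0% were lower. Of the members, 20 were lower, 4 were higher and Acat2 was listed at 0 in both libraries. A ratio at or below 0.75 was found for 13 of 25, against 22.7% of all loci, and a ratio at or above 1.5 for 2, against 17.7%. The interval lay below 1 for 3 of 17 (Hmgcs1, Cyp51 and Nsdhl), against 5.83% of loci with an interval, and above 1 for Insig2, against 5.57%. Together the 19 synthesis enzymes summed to 431 FPKM in the CD and 300.3 FPKM in the WD, a ratio of 0.697.

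**Figure D1:**
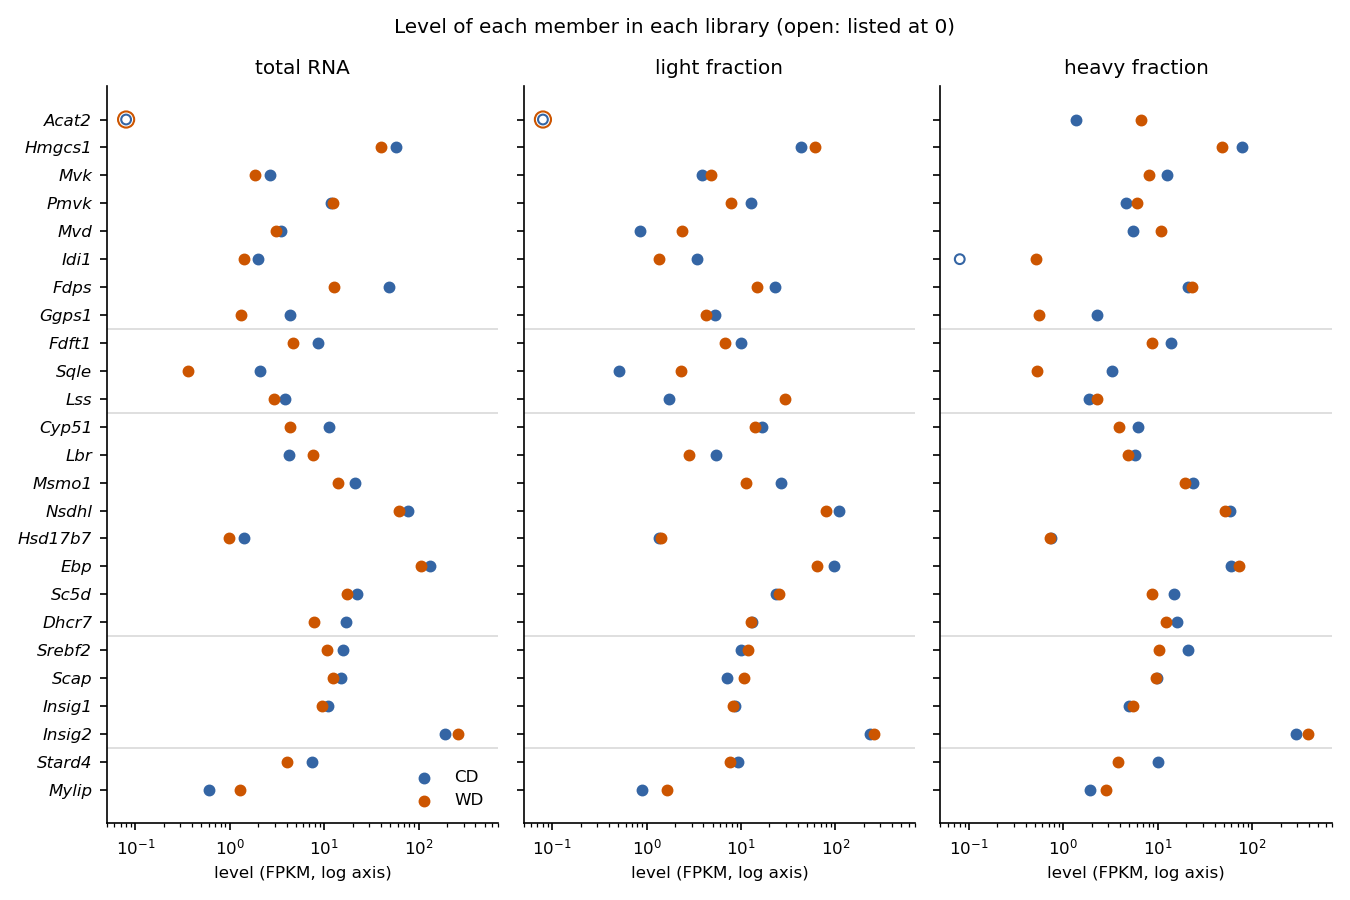
Level of each of the 25 members (FPKM, log axis) in total RNA, the light fraction and the heavy fraction, 1 point per library, blue for the CD and orange for the WD, with open circles for values listed at 0. In total RNA 20 members have the WD point to the left of the CD point, while Insig2 has the highest level in every library.

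Among genes of the mevalonate arm, Hmgcs1, which makes HMG-CoA, had 57.1 FPKM in CD and 39.7 FPKM in WD total RNA, from 197 and 131 fragments. Its ratio was 0.695 (95% interval 0.553 to 0.872). Its locus is chr2:52431600-52445055 on Rnor_6.0. Fdps, which makes farnesyl diphosphate, had 48.3 FPKM in the CD and 12.8 FPKM in the WD, a ratio of 0.265. The bounds that Cufflinks gives for these values, 11.3 to 85.2 FPKM and 0.996 to 24.6 FPKM, overlap. Ggps1, which makes geranylgeranyl diphosphate, had 4.39 and 1.30 FPKM. Mvk, Mvd and Idi1, all under 4 FPKM in both diets, had ratios of 0.697, 0.871 and 0.697. Mvk rested on 3 and 2 fragments (interval 0.0582 to 6.08) and Mvd on 6 and 5 (0.210 to 3.43). The second kinase, Pmvk, had 11.8 and 12.3 FPKM. Fdps has 5 named pseudogenes in RefSeq, Acat2 has 2 and Idi1 and Nsdhl 1 each, so reads of these 4 may be shared with copies. The locus of Idi1 also spans Wdr37, with a mean of 3.19 FPKM.

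The 3 enzymes that lead to squalene and lanosterol also had ratios below 1. Fdft1, the squalene synthase, had 8.57 and 4.64 FPKM from 29 and 15 fragments, and its interval of 0.270 to 1.04 includes 1. Sqle, the squalene epoxidase and a rate-limiting step, rested on 6 fragments in the CD and 1 in the WD, so its ratio of 0.174 has an interval of 0.00379 to 1.44. Lss, the lanosterol synthase, had a ratio of 0.751.

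Of the enzymes from lanosterol to cholesterol, Cyp51, the lanosterol demethylase, had the lowest ratio, at 0.392 (0.201 to 0.725), from 11.1 FPKM in the CD and 4.37 FPKM in the WD. Nsdhl, a decarboxylating dehydrogenase, had 77.0 and 62.8 FPKM and a ratio of 0.815 (0.671 to 0.989). With each library rescaled to the same sum over loci with a symbol, its interval ran from 0.717 to 1.06 and included 1. Dhcr7, the last reductase, had 17.1 and 7.87 FPKM, and Msmo1, a methyl sterol oxidase, 21.2 and 13.9 FPKM with an interval of 0.380 to 1.10. Ebp, a sterol isomerase and the most abundant enzyme of the list in total RNA at 132 and 105 FPKM, had a ratio of 0.794 (0.604 to 1.04), and Sc5d, the desaturase, one of 0.789 (0.592 to 1.05). Hsd17b7 had 1.40 and 0.978 FPKM from 6 and 4 fragments, a ratio of 0.697 (0.145 to 2.94). Lbr, a sterol reductase that is also a nuclear membrane protein, was the exception at 4.21 and 7.70 FPKM, with an interval of 0.716 to 5.03. The merged locus that holds Tm7sf2, the other C14 reductase, had 11.3 and 5.63 FPKM, which cannot be assigned to Tm7sf2.

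The control proteins did not move together. Srebf2 itself had 15.8 FPKM in the CD and 10.7 FPKM in the WD, Scap 15.2 and 12.4 FPKM, and Insig1 11.0 and 9.48 FPKM with an interval of 0.473 to 1.55. Insig2, which holds Scap in the endoplasmic reticulum, was higher in the WD, with 192 and 259 FPKM from 173 and 224 fragments and a ratio of 1.35 (1.11 to 1.66). It was the most abundant member in all 6 libraries, and it sets the sum over all 25 members, whose ratio was 0.889 with it and 0.704 without it. Stard4, which carries sterol through the cytosol, had 7.42 and 4.06 FPKM (interval of the ratio 0.239 to 1.19). Mylip, a ligase that marks lipoprotein receptors for degradation, had 0.610 and 1.28 FPKM from 2 and 4 fragments. The merged locus that holds Npc1 had 15.7 and 15.8 FPKM.

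**Figure D2:**
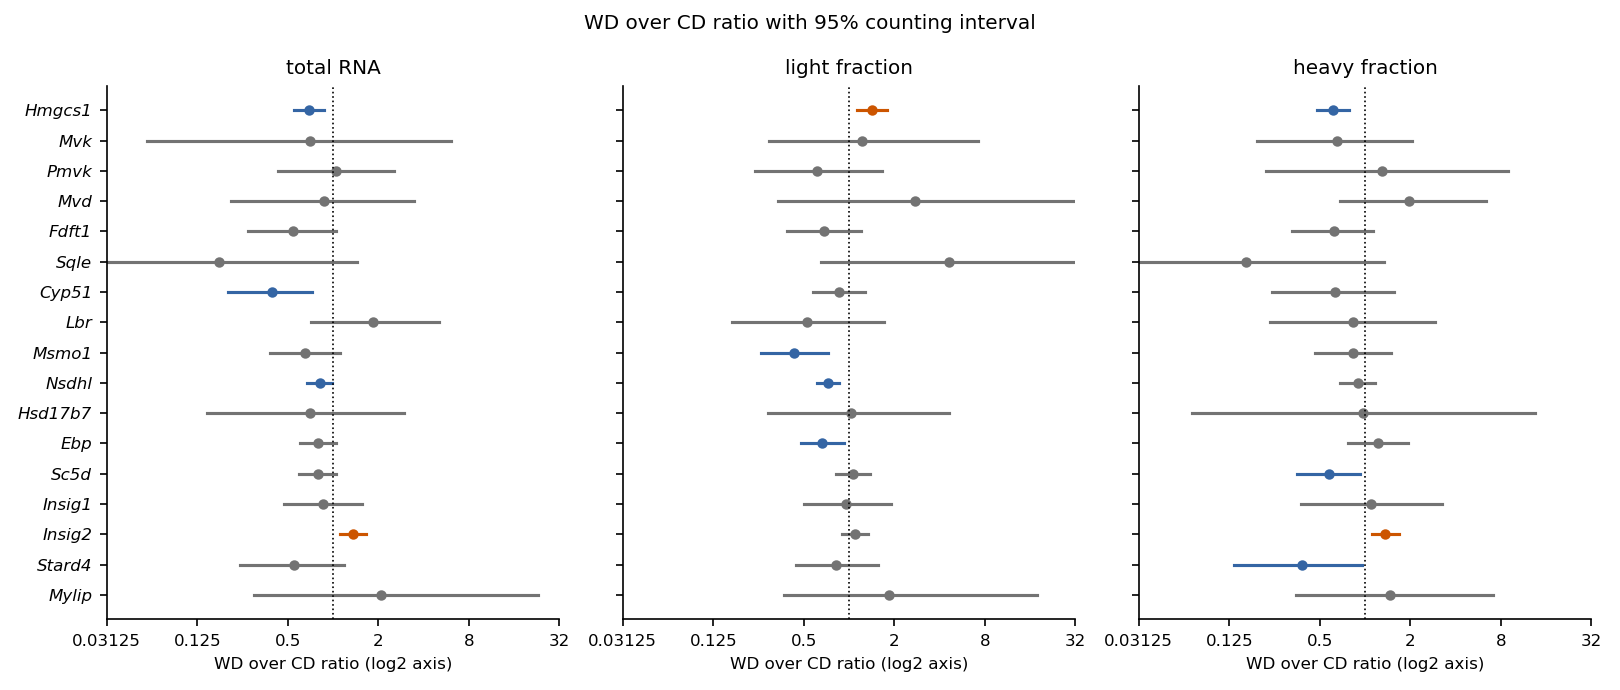
WD over CD ratio of the 17 members with inferred fragments (points) with 95% counting intervals (lines) on a log2 axis, in blue where the interval lies below 1 and orange where it lies above 1, lines being clipped at the axis limits. In total RNA 3 intervals lie below 1 and that of Insig2 lies above, and the widest belong to members with few fragments such as Mylip and Sqle.

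Lists of genes near the pathway are given beside the same shares of all loci. These are 22.7% at or below 0.75, 17.7% at or above 1.5, and 5.83% of intervals below 1 and 5.57% above. No difference between lists was tested. Of 13 compared genes for SREBP cleavage and for sterol-regulated degradation in the endoplasmic reticulum, the median log2 ratio in total RNA was -0.04. Of these genes, 0 were at or below 0.75 and 1 at or above 1.5, and 0 of 8 intervals were apart from 1. Pgrmc1 and Vcp, the most abundant, had log2 ratios of 0.14 and -0.15. In 13 genes of the isoprenoid branches the median was 0.06, with 2 at or below 0.75 and 3 at or above 1.5. Of their intervals, 0 of 10 were apart from 1, and Nus1, Fnta and Icmt had log2 ratios of 0.33, -0.46 and -0.39.

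In 11 other genes of sterol handling or SREBP response the median log2 ratio was -0.19, with 8 lower. Of these genes, 4 were at or below 0.75 and 1 at or above 1.5. Of 9 intervals, 3 lay below 1 and 2 above. Fads1 and Fads2, desaturases of polyunsaturated fatty acids, had 50.0 and 13.6 FPKM and 131 and 65.5 FPKM in CD and WD total RNA, and Por, the reductase that serves Cyp51 and Sqle, 47.3 and 24.5 FPKM. The intervals of the ratio of these 3 lay below 1. Cyb5a, an electron donor of the desaturases, had 360.2 and 459.9 FPKM and Stard5 had 1.75 and 14.6 FPKM, the latter from 2 and 16 fragments, and both intervals lay above 1. Cyb5r3 had a log2 ratio of -0.19.

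In the light fraction, the members did not stand below the CD as a group. The median log2 ratio was -0.01 against 0.02 over all loci. Lower were 13 members and higher 11, while 47.2% of all loci were lower. At or below 0.75 were 8 of 25, against 26.8% of all loci, and at or above 1.5 were 4, against 25.9%. The interval lay below 1 for 3 of 17 (Msmo1, Nsdhl and Ebp), against 10.9%, and above 1 for Hmgcs1, against 10.6%. This direction depends on scaling. When the libraries were brought to equal sums the median of all loci became -0.29, 18 members were lower and 6 higher, and the members' median stood -0.07 from that of all loci.

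Msmo1 had 26.4 FPKM in the CD and 11.4 FPKM in the WD light fraction, a ratio of 0.433 (0.259 to 0.723). Nsdhl had 109 and 79.5 FPKM (ratio 0.727, 0.616 to 0.858) and Ebp 96.0 and 63.5 FPKM (0.661, 0.475 to 0.924). Hmgcs1 went the other way, with 42.8 and 60.4 FPKM and a ratio of 1.41 (1.12 to 1.79). After rescaling its interval, 0.880 to 1.40, included 1, while those of Msmo1, Nsdhl and Ebp stayed below 1 and that of Fdft1 moved below 1. Lss was listed at 29.3 FPKM in the WD light fraction against 1.75 to 3.89 FPKM in the other 5 libraries, and Cufflinks gave that value bounds of 0 and 169 FPKM.

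In the heavy fraction, the median log2 ratio of the members was -0.16 against -0.02 over all loci. Lower were 15 members and higher 10, while 50.4% of all loci were lower. A ratio at or below 0.75 was found for 9 of 25, against 25.8% of all loci, and one at or above 1.5 for 3, against 21.7%. Those 3 are Mvd, Acat2 and Idi1, of which Idi1 was listed at 0 in the CD. Acat2 reached the mean of 1 FPKM only through its WD heavy value, so its count here is not independent of the filter. The interval lay below 1 for 3 of 17 (Hmgcs1, Sc5d and Stard4), against 6.27%, and above 1 for Insig2, against 5.74%.

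Hmgcs1 had 78.7 FPKM in the CD and 48.4 FPKM in the WD heavy fraction, a ratio of 0.615 (0.479 to 0.786). Sc5d had 15.0 and 8.60 FPKM (0.574, 0.353 to 0.919), and Stard4 had 9.99 and 3.79 FPKM from 18 and 7 fragments (0.380, 0.134 to 0.953). Insig2 had 289 and 394 FPKM (1.36, 1.11 to 1.68), a ratio close to that in total RNA. Srebf2, without an interval, had 20.7 and 10.2 FPKM. Acat2 was seen only here, at 1.38 FPKM in the CD and 6.71 FPKM in the WD, and was listed at 0 in the other 4 libraries. The Cufflinks bounds of these 2 values, 0 to 4.72 FPKM and 0 to 14.6 FPKM, overlap.

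Several members kept a lower value in the WD through all 3 kinds of RNA. Fdft1 had 9.95 and 6.76 FPKM in the light fraction (CD, then WD) and 13.9 and 8.62 FPKM in the heavy fraction, and all 3 of its intervals include 1. Cyp51 had 16.7 and 14.2 FPKM in the light and 6.12 and 3.84 FPKM in the heavy fraction, so that its ratio was lowest in total RNA. Ggps1 had 5.35 and 4.25 FPKM, then 2.30 and 0.551 FPKM. The merged locus of Tm7sf2 had 13.6 and 7.11 FPKM, then 25.8 and 9.71 FPKM.

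For others the fractions differed less than total RNA, or differed in direction. Fdps had 22.8 and 14.8 FPKM in the light fraction and 21.1 and 23.3 FPKM in the heavy fraction, ratios of 0.650 and 1.11 against 0.265 in total RNA. Dhcr7 had 13.0 and 12.9 FPKM in the light and 15.9 and 12.1 FPKM in the heavy fraction, ratios of 0.990 and 0.762 against 0.460 in total RNA. Lbr, higher in WD total RNA, had 5.39 and 2.83 FPKM in the light and 5.79 and 4.84 FPKM in the heavy fraction, each from 6 to 8 fragments. The control proteins Scap and Insig1 had ratios of 0.992 and 1.10 in the heavy fraction.

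Mylip was higher in the WD in total RNA and in both fractions, at ratios of 2.09, 1.84 and 1.46 on 2 to 8 fragments, and its intervals include 1. The merged locus of Npc1 was close to equal between the diets in all 3, with 26.0 and 24.6 FPKM in the heavy fraction.

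**Figure D3:**
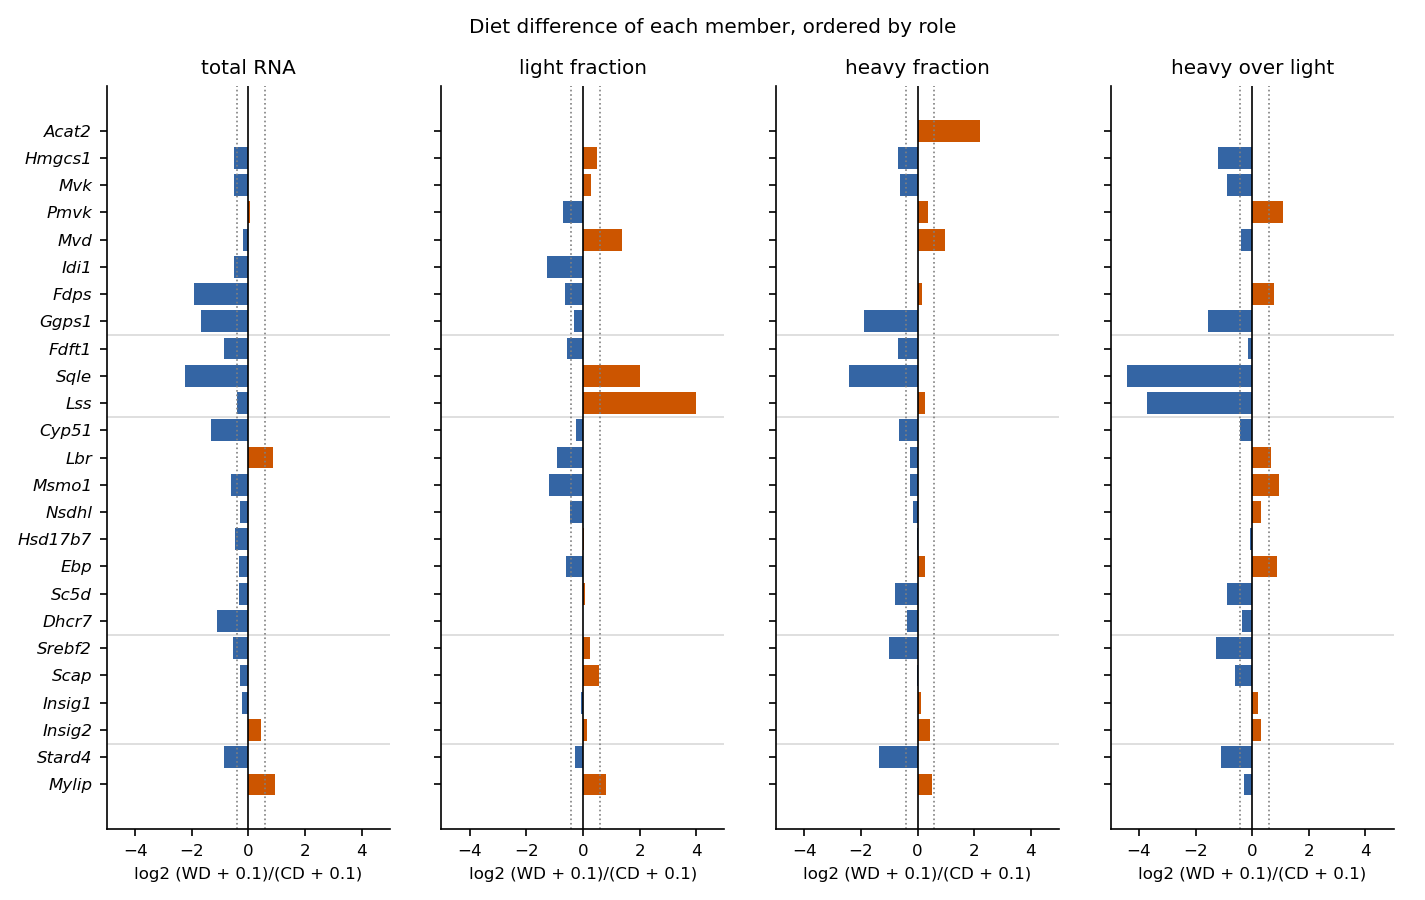
Log2 of WD over CD for each member, with 0.1 FPKM added to each value, in total RNA, the light fraction, the heavy fraction and the heavy to light ratio, ordered by role, with dotted lines at ratios of 0.75 and 1.5 and no bar where a library is listed at 0. Bars in total RNA lie mostly to the left, and those of the other panels point both ways.

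Ribosome density, the level in the heavy over that in the light fraction, differed between the diets' libraries in both directions. The median log2 change of the members was -0.28 against -0.02 over all loci. Lower were 15 members and higher 10, while 50.7% of all loci were lower. After rescaling to the same sum 12 were lower and 13 higher and the median was 0.02, while that of all loci was 0.28. With the heavy fraction set against total RNA, 9 were lower and 16 higher and the median was 0.28, so the direction of the group depends on the reference. A change at or below 0.75 was found for 10 of 25, against 36.1% of all loci, and one at or above 1.5 for 7, against 27.7%. Of these 7, Acat2 and Idi1 rest on a value listed at 0, and Acat2 was compared only because of its WD heavy value. The interval lay below 1 for 3 of 17 (Hmgcs1, Sqle and Sc5d), against 6.95%, and above 1 for Ebp, against 7.31%.

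Within each diet the heavy to light ratios of the members lay on both sides of 1. In the CD, 14 of 25 had a higher FPKM in the heavy than in the light fraction, against 5123 of 10201 loci. The median log2 ratio was 0.10, against 0.01 over all loci. In the WD it was 10 of 25, against 4943 of 10201 loci, with a median of -0.22 against 0 over all loci. Acat2, compared only because of its WD heavy value, is counted as higher in the heavy fraction in both diets. These counts depend on scaling, since loci with a symbol summed to 867734 FPKM in the WD light and 700724 in the WD heavy library. The CD sums were 679535 and 689208 FPKM. The counts were not repeated after rescaling. FPKM is scaled within each library, so the ratio compares shares and not amounts of RNA. Mvd and Mvk were listed higher in the heavy fraction in both diets, with heavy to light ratios of 6.44 and 4.56 and of 3.22 and 1.71, but the CD values rest on 6 heavy and 1 light fragments for Mvd and on 9 and 3 for Mvk. Nsdhl (0.528 and 0.649), Insig1 (0.573 and 0.662) and Cyp51 (0.367 and 0.270) had a higher FPKM in the light fraction in both diets. The ratios of the 2 Insig mRNAs thus lay on opposite sides of 1, since that of Insig2 was 1.23 and 1.53.

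The heavy to light ratio of Hmgcs1 was 1.84 in the CD and 0.802 in the WD, a change of 0.436 (0.310 to 0.613). Hmgcs1 was the only one of the 3 lower members whose interval stayed below 1 after rescaling (0.389 to 0.770), and its change was small against total RNA, at -0.18 on the log2 scale. The ratio of Sc5d was 0.630 and 0.340, a change of 0.540 (0.311 to 0.934), and after rescaling the upper end was 1.17. That of Sqle rested on 6 heavy and 1 light fragments in the CD and on 1 and 10 in the WD, and its upper end moved from 0.942 to 1.18. Ebp had 0.621 and 1.14, a change of 1.84 (1.04 to 3.26), and after rescaling the intervals of Msmo1, Nsdhl and Insig2 lay above 1 as well. The count below and above 1 thus went from 3 and 1 to 1 and 4.

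**Figure D4:**
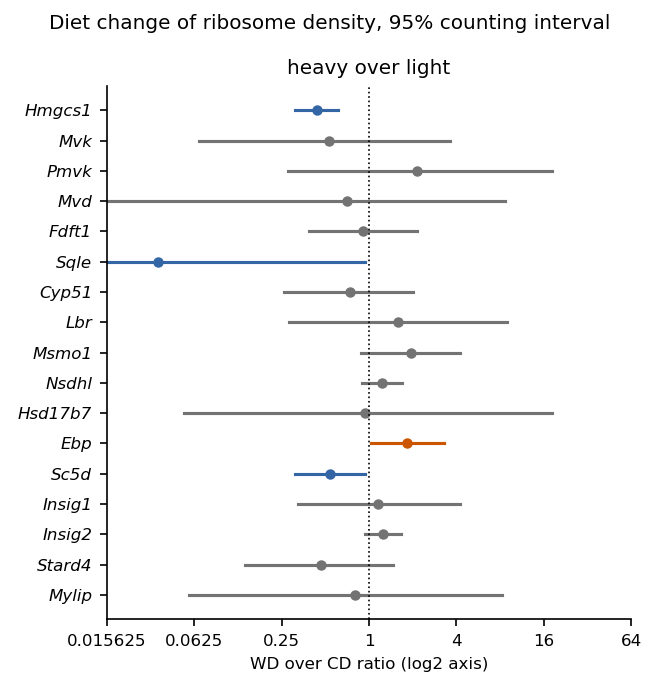
WD over CD change of the heavy to light ratio for the 17 members with inferred fragments (points) with 95% counting intervals from the conditional odds ratio (lines), log2 axis, lines clipped at the axis limits. Hmgcs1, Sqle and Sc5d (blue) lie below 1 and Ebp (orange) above, before any rescaling.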

How the data were processed

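Total, light fraction and heavy fraction RNA of both diets was depleted of ribosomal RNA and sequenced. Alignment by the authors used TopHat and Rnor_6.0, and they deposited FPKM values per locus, with bounds, from Cufflinks 2.2.1 and Cuffnorm. The annotation is not given in the sources used here, and it is not certain whether fraction reads took a separate alignment route. No other columns were used.

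Log2 ratios were computed after adding 0.1 FPKM, which understates changes of low genes, for loci that had a symbol, an estimate without error and a mean of 1 FPKM or more. Ratios of 0.75 and 1.5 served as thresholds. All members are named. Of the lists, the 3 most abundant genes and any whose interval in total RNA excludes 1 are named, apart from 1 gene that is not reported here. The members and lists were chosen with earlier results of these data known.

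Fragments were inferred as whole numbers (tolerance 0.005) times 1 step per locus and 1 factor per library, for 83.3% of the 12380 loci detected in 3 or more libraries, and for 0.759% once values were jittered by 1%. They were then compared with the bounds, which dropped some loci, so that 6576 of the 10201 loci compared (64.5%) had numbers. The median per locus lay between 10 and 26 fragments. On simulated data, the first form of this step gave 1 library a factor too small, which doubled its numbers. A check for multiples of 2 and 3 was then added, after which the true factors were recovered, and the values reported here were the same with and without it. In the real libraries 50.8% to 54.3% of the numbers were odd. Alternatives were other pseudocounts and filters, centring, rescaling, fragments in place of FPKM and the heavy fraction over total RNA. The tools were scipy 1.17.1, numpy 2.4.6, pandas 2.3.3, matplotlib 3.10.9 and Python 3.11.15.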

Additional observations from a re-analysis of the deposited data

Results flagged for a closer look

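For 4 members the diet difference in the heavy fraction was apart from that in the light fraction, as judged by the interval of the ratio of the 2 ratios. The difference, heavy minus light on the log2 scale, was -1.20 for Hmgcs1, -4.42 for Sqle, -0.88 for Sc5d and 0.88 for Ebp. These compare 4 libraries and not replicated groups. After rescaling, the intervals of Hmgcs1 and Ebp remained apart from 1 and those of Sqle and Sc5d did not.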

How the results depend on the processing

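No paired analysis was possible because each group is 1 library. The medians of the members stayed within the order-statistic interval of the median under the alternatives run. That interval is taken over the members, which are not replicates, and it is wide. Staying within it therefore does not show that a median is stable. The median of the heavy to light change turned sign under 2 alternatives. It was 0.02 after rescaling against -0.28, and 0.28 with total RNA as the reference. The median of the light fraction, -0.01, was 0.04 with a mean of at least 10 FPKM. Of the counts, ratios at or above 1.5 in total RNA were 1 with a pseudocount of 1 FPKM. With a mean of at least 10 FPKM, where 10 members remained, those at or below 0.75 were 5 in total RNA, 4 in the light fraction, 3 in the heavy fraction and 4 for the heavy to light ratio, and those at or above 1.5 were 0, 0, 0 and 3. With inferred fragments, for 17 members, 6 were at or below 0.75 in total RNA and 5 for the heavy to light ratio, and 1 in the heavy fraction and 3 for the heavy to light ratio were at or above 1.5. Fewer members were counted under both. With the heavy fraction over total RNA, 5 were at or below 0.75, and the median turned from -0.28 to 0.28 with 9 members lower and 16 higher, and 8 members changed sign. Of these, 4 had been past a threshold, Lbr (now -1.11), Lss (0.68), Cyp51 (0.67) and Scap (0.28), and 4 had not, Mvd (1.15), Dhcr7 (0.72), Hsd17b7 (0.45) and Fdft1 (0.19). The cause was not tested. Among members with an interval, 443 values stayed within it, 4 moved and 2 past a threshold reversed. Among those without, 171 moved by less than a ratio of 1.5, 11 by more and 2 past a threshold reversed. The move of the intervals under rescaling was examined after seeing the data. Depth limits the members with few fragments most, such as Sqle, Mvd, Mvk, Hsd17b7 and Mylip.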
